A study of Mus musculus with 16 samples.

Results

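Reactive astrocytes are often described with a panel of 3 gene classes, and the 31 panel genes analysed here are 10 pan-reactive, 11 A1 and 10 A2 genes. They are named by that panel rather than picked by a threshold on these values, though they were taken up with earlier results of these data known. All 31 were among the 17097 genes measured. The RNA came from the striatum of 8 wild-type male C57BL/6J mice aged 63 days, killed 2 h after an injection. A group of 4 mice received clozapine N-oxide (CNO) at 1 mg/kg, and the other 4 received vehicle. Each mouse gave 1 library of ribosome-bound RNA, captured through a hemagglutinin tag placed on astrocyte ribosomes (immunoprecipitate, IP), and 1 library of the cleared lysate of the whole striatum (input). The 4 groups hold 4 libraries each, CNO IP with its control vehicle IP, and CNO input with its control vehicle input. Replicates are numbered 2 to 5 as in the sample titles, and a number within CNO or within vehicle is 1 mouse. CNO is a ligand for designer receptors, and the series title names Gi signalling in astrocytes. The labels give neither the receptor nor the promoter or vector that placed it and the tag, and a group with CNO but no receptor was not analysed here. The series text counts 4 mice where the titles carry 8 mouse codes. If the codes are not separate animals, each p-value measures only the spread between these samples.

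Astrocytes respond to injury, infection and inflammation by changing their shape and their transcripts, a state called reactive. Pan-reactive genes, such as Gfap and Vim of the intermediate filaments, were defined as raised by both systemic endotoxin and ischaemia. A1 genes were defined as raised by endotoxin, and many of them are interferon-inducible genes of antigen presentation and complement control. A2 genes were defined as raised by ischaemia, and several of them belong to growth, matrix and prostaglandin pathways. The classes name where the genes were first seen to change and are not a set of cell types.

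IP libraries held 52.1 to 61.5 M reads assigned to genes and input libraries 32.8 to 40.3 M. Values are CPM, the reads of a gene scaled to the depth of its library, computed from the authors' log2 CPM, and a log2 change of 1 is a doubling. Of 15 astrocyte markers, 15 were higher in IP than in input in both CNO and vehicle mice, and 18 of 18 microglial markers were lower in both. Oligodendrocyte markers were higher in IP for 13 of 14 in CNO mice and 11 of 14 in vehicle mice, and ependymal markers for 10 of 10 and 9 of 10. In bulk RNA, fewer cells of a type and less RNA per cell cannot be told apart.

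Levels are compared between genes per kilobase of exon (CPM/kb). In CNO IP they spanned a wide range, with Gfap at 1025 CPM/kb, the class I antigen gene H2-D1 at 330 CPM/kb and the interferon-inducible GTPase gene Gbp2 at 208 CPM/kb at the top. In vehicle IP the same 3 genes led, at 859, 336 and 216 CPM/kb. At the low end of CNO IP stood the metalloreductase gene Steap4 (0.219 CPM/kb), the steroid sulfate transporter gene Slc10a6 (0.222 CPM/kb) and the secretory granule proteoglycan gene Srgn (0.338 CPM/kb). Read numbers at this end were small. Slc10a6 rested on 95 reads in CNO IP and 14 in vehicle IP, against 876642 and 781287 reads of Gfap.

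Of the vehicle mice, mouse 5 and mouse 3 stood apart for these genes, a pattern noticed in the values and given without a test. Mouse 5 was the highest and mouse 3 the lowest of the 4 vehicle mice for 25 of 31 panel genes in IP, against 21.5% of all genes tested. In input this held for 22 of 30, against 14.9% of all genes. The median ratio of mouse 5 to mouse 3 was 2.89-fold over the panel in IP and 3.12-fold in input, against 1.00 and 0.992 over all genes. The 6 exceptions in IP were Steap4, Fbln5, Fkbp5, Amigo2, Ptgs2 and Tm4sf1. A median panel gene had a standard deviation (SD) of 0.35 on the log2 scale in CNO IP and 0.66 in vehicle IP, where a median gene had 0.11 and 0.12. The vehicle group had the larger SD for 25 of 31 panel genes in IP (57.6% of all genes). For CNO against vehicle, panel genes whose call changes with both mice left out are named below.

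**Figure D1:**
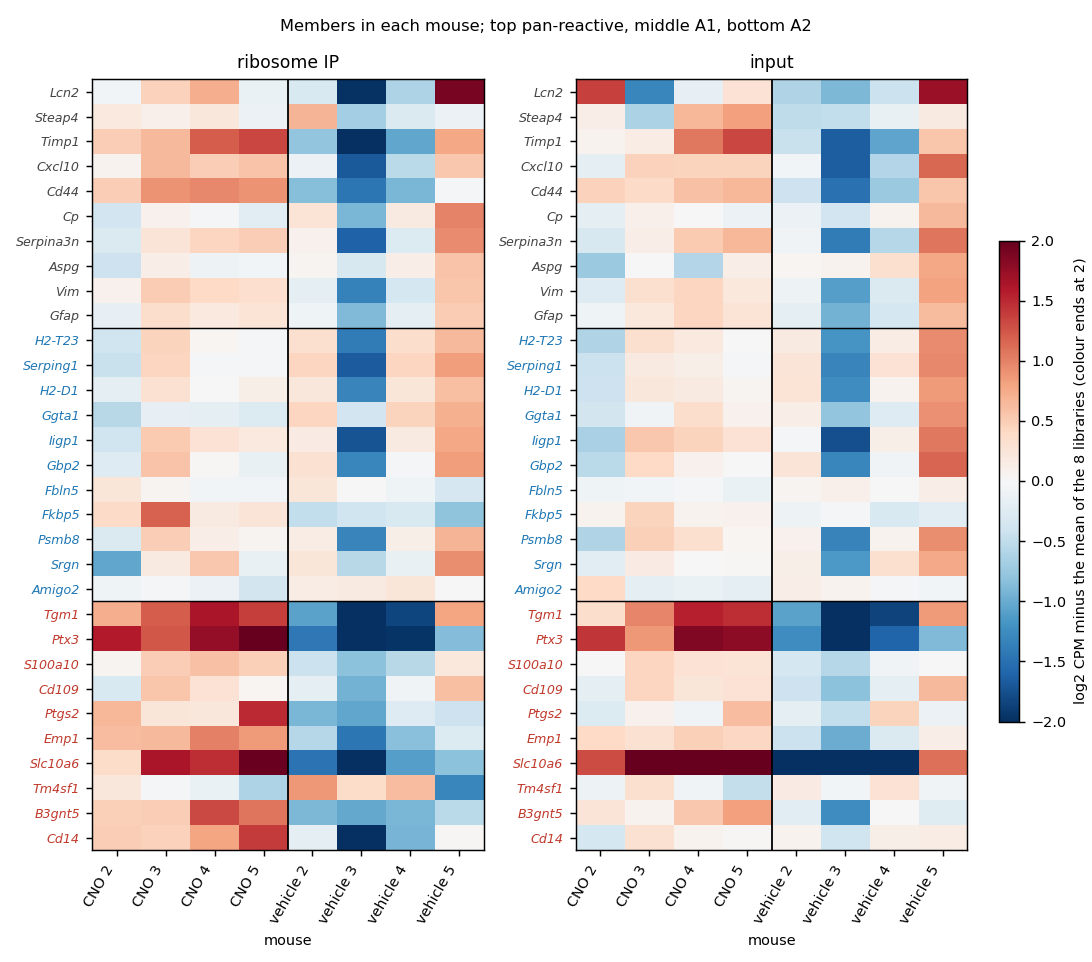
Each cell is the log2 CPM of a gene in 1 library minus the mean of that gene over the 8 IP libraries (left panel) or the 8 input libraries (right panel), with CNO mice 2 to 5 left of vehicle mice 2 to 5. Vehicle mouse 3 is blue and vehicle mouse 5 red for most genes in both RNA types, while Ptx3, Tgm1 and Slc10a6 separate most of the CNO mice from most of the vehicle mice.

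The largest ratios of mouse 5 to mouse 3 in vehicle IP were those of Lcn2 (14.9-fold), Tgm1 (12.4-fold), Timp1 (10.5-fold) and Serpina3n (5.91-fold). The interferon-inducible genes of the panel also took part. They are H2-T23 and H2-D1 (class I antigen presentation), Serping1 (the C1 inhibitor of complement), Iigp1 and Gbp2 (GTPases against intracellular pathogens), Psmb8 (an immunoproteasome subunit) and the chemokine gene Cxcl10. Mouse 5 exceeded mouse 3 by 3.79- to 5.66-fold for these 7 genes in vehicle IP and by 4.26- to 7.0-fold in vehicle input. The highest CNO IP library exceeded the lowest by 1.39- to 1.91-fold. Iigp1 showed the pattern plainly, with 273, 521, 439 and 414 CPM in CNO IP replicates 2 to 5, against 405, 110, 406 and 617 CPM in vehicle IP. All CNO values lay inside the vehicle range. A list of 30 other interferon-response genes moved the same way, as mouse 5 was highest and mouse 3 lowest for 30 of 30 in vehicle IP and 29 of 30 in vehicle input. The summed level of that list was 5946 to 9015 CPM in CNO IP, against 7353, 2955, 6880 and 9899 CPM in vehicle IP replicates 2 to 5. Of 15 listed markers of blood myeloid cells only 4 were found in the data. These were higher in mouse 5 than in mouse 3 for 4 of 4 genes (median 11.9-fold in IP and 9.88-fold in input), and microglial markers for 18 of 18 (2.26-fold and 2.44-fold). The summed microglial level was 93.2 to 113 CPM in CNO IP and 82.4 to 140 CPM in vehicle IP, with no microglial marker at 0. Astrocyte markers ran the other way (0.888-fold in IP and 0.939-fold in input), and so did ependymal markers (0.395-fold and 0.594-fold). Oligodendrocyte markers were higher in mouse 5 in IP (2.49-fold) and not in input (0.854-fold). The part of these cell types in the spread of the panel genes was not tested.

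The first comparison asks what CNO changed in ribosome-bound RNA of the IP. A2 genes were higher in CNO IP for 8 of 10, led by the pentraxin gene Ptx3 at 10.1-fold, while of the pan-reactive genes 1 of 10 was higher, the hyaluronan receptor gene Cd44 at 3.10-fold. Of the 11 A1 genes, Fkbp5, a co-chaperone of steroid receptors, was 2.00-fold higher and Amigo2, an adhesion gene, was lower (0.817-fold). The panel thus had 10 genes higher and 1 lower of 31, beside 10.2% of 15602 genes higher and 7.08% lower. The median log2 fold change was 1.57 for A2, 0.47 for pan-reactive and 0.09 for A1 genes, against -0.01 for all genes. At an unadjusted p under 0.05 the counts were 11 and 2, beside 2410 higher and 2211 lower of all 15602 genes. Between classes no test of the difference was made. The published panel holds further genes, given below, which these class counts leave out. Of the 6 of them tested in IP, 5 were higher. They are not sorted by class here, and class counts over the whole published panel would differ. Every adjusted p is from limma with Benjamini-Hochberg adjustment over all genes tested, with n = 4 libraries in each group and a threshold of 0.05. CNO IP libraries all exceeded vehicle IP libraries for 8 panel genes (12.8% of all genes) and all lay below them for 1, Amigo2 (10.1%). Slc10a6, counted among the A2 calls and among these 8 genes, reached the count filter only in its CNO IP libraries.

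**Figure D2:**
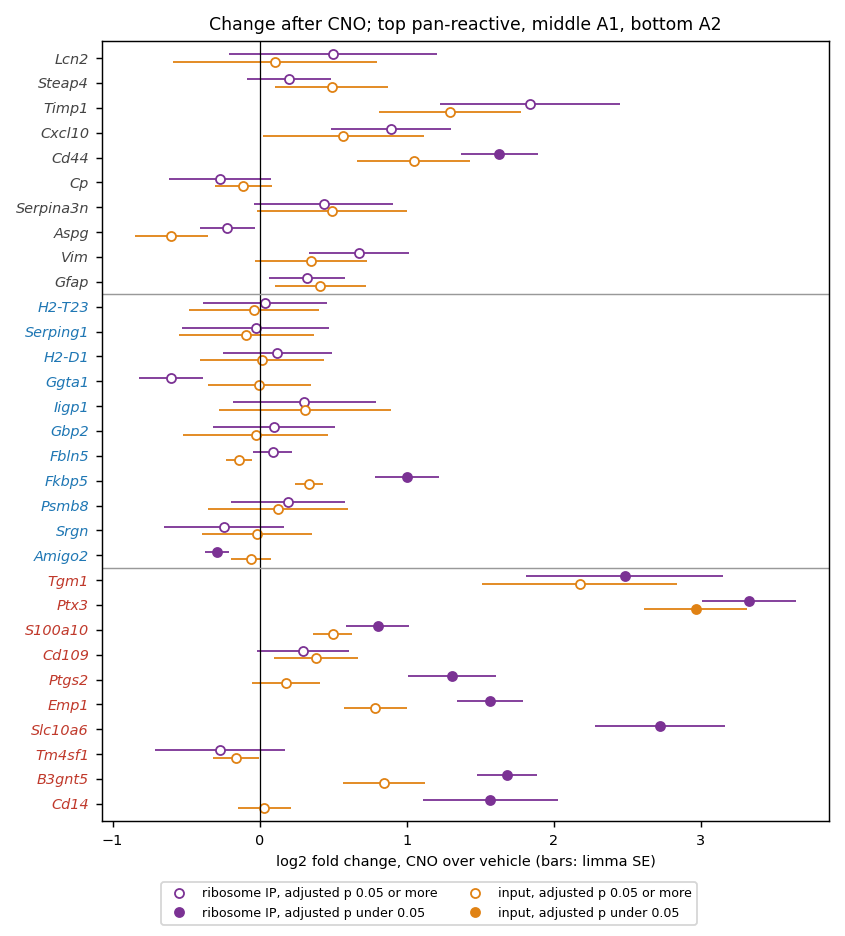
Points are the log2 fold change of CNO over vehicle for each gene in IP (purple) and input (orange), bars the limma standard error, and filled points have an adjusted p under 0.05. Filled purple points lie mainly among the A2 genes at the bottom, and Ptx3 is filled in both RNA types. Slc10a6 was not tested in input.

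Promoters show where searched motifs stand near the start sites of a few panel genes. RefSeq promoters of GRCm38.p6, from 250 bases before to 50 after the start site, were found for 26 of the 31 genes. The first 4 below belong to Ptx3, Slc10a6, Tgm1 and Emp1, genes that rose in CNO IP and are shown because they hold a match. The promoters of B3gnt5, Cd44, Ptgs2 and Fkbp5, which also rose, and of Amigo2, which fell, held no match of any motif searched. S100a10 and Cd14, which rose as well, were among the genes without a promoter and were not searched. The last pair, Cxcl10 and Gbp2, was added after the values were seen, as interferon-inducible genes that did not pass. All are written 5′ to 3′, and capitals mark motif matches on either strand.
Ptx3, chr3:66219637-66219936 (+ strand): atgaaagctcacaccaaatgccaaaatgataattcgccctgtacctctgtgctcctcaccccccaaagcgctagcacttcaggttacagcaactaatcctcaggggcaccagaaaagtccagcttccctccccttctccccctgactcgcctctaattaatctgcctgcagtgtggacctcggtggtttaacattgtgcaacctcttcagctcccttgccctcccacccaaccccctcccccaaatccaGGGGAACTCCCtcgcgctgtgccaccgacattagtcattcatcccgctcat
Slc10a6, chr5:103629354-103629653 (- strand): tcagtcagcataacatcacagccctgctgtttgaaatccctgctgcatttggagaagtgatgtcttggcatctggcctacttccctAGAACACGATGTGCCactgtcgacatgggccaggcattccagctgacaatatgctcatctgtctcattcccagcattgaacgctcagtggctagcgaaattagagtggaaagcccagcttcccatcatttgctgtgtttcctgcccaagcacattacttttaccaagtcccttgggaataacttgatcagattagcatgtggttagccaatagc
Tgm1, chr14:55713443-55713742 (- strand): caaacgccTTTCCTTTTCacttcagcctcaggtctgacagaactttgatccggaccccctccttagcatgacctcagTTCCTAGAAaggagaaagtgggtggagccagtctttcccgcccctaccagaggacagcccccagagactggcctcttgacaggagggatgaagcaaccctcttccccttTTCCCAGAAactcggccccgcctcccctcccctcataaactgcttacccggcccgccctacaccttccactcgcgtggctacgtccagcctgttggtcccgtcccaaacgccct
Emp1, chr6:135362681-135362980 (+ strand): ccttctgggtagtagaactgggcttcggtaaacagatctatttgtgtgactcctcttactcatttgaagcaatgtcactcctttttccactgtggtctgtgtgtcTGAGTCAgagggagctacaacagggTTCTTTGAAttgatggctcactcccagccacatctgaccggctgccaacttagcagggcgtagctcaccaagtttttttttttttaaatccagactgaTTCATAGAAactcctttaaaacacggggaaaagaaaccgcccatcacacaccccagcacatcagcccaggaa
Cxcl10, chr5:92348840-92349139 (- strand): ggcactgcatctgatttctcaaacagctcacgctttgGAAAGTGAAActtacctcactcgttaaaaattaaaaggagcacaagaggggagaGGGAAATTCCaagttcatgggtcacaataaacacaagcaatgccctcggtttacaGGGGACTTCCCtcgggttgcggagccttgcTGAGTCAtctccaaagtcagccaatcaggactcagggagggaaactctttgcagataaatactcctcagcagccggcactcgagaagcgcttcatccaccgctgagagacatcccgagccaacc
Gbp2, chr3:142620413-142620712 (+ strand): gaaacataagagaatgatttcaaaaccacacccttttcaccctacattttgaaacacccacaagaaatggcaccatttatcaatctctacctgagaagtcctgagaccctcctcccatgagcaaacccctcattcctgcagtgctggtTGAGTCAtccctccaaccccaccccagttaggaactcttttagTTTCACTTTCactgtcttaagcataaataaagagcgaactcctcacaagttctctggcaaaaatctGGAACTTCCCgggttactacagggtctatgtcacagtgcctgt
Searched letters were TGAGTCA or TGACTCA (AP-1), TGACGTCA (the cAMP response element), TTCNNNGAA (STAT), GAAANNGAAA (the interferon-stimulated response element), and the degenerate NF-kB and glucocorticoid response elements. In Ptx3 the capitals are 2 overlapping NF-kB matches at the start site. Slc10a6 holds 1 glucocorticoid response element match, a motif in 0.222% of all 32851 promoters and in 1 of the 26 panel genes. Emp1 holds AP-1 and STAT matches and Tgm1 STAT matches and 1 of the interferon-stimulated response element. Cxcl10 and Gbp2 both hold AP-1, NF-kB and interferon-stimulated response element matches. AP-1 matches stood in 3 of 26 panel genes (5.20% of all promoters), STAT in 5 (8.30%), NF-kB in 7 (8.46%), the interferon-stimulated response element in 7 (3.44%) and the cAMP response element in 0 (1.79%). The panel counts are of genes, whose 26 held 31 promoters, while the percentages are of single promoters. A gene with more than 1 promoter has more chances of a match. A match describes letters and is not a bound site.

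Ptx3 encodes a secreted pentraxin of innate immunity and matrix assembly, and it had the largest change of the 31 genes analysed here. Its levels were 15.6, 12.4, 17.7 and 22.0 CPM in CNO IP replicates 2 to 5, against 1.93, 0.982, 1.33 and 2.85 CPM in vehicle IP. The lowest CNO library was above every vehicle library. The log2 fold change was 3.33 (SE 0.32, adjusted p = 1.51e-04). The annotation of Ptx3 on chromosome 3 (66219910 to 66225805, GRCm38) overlaps Veph1 on the opposite strand, which averaged 0.702 CPM in CNO IP and 0.631 CPM in vehicle IP.

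Slc10a6 rested on few reads. It had 0.216, 0.530, 0.472 and 0.671 CPM in CNO IP, against 0.0563, 0.0364, 0.0752 and 0.0920 CPM in vehicle IP. The groups did not overlap, but only the CNO IP libraries reached the count filter. The call and the gap between the groups are thus not independent of that filter. The log2 fold change of Slc10a6 was 2.72 (SE 0.44, adjusted p = 0.00288). On a scale of log2(CPM + 1), which shrinks low genes, the change was 0.46.

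Tgm1 encodes a transglutaminase that crosslinks proteins, best known from the skin barrier. It had 37.8, 52.9, 70.4 and 59.4 CPM in CNO IP, against 10.9, 3.16, 6.34 and 39.3 CPM in vehicle IP. The groups overlapped, because vehicle mouse 5 exceeded CNO mouse 2. The log2 fold change was 2.48 (SE 0.67, adjusted p = 0.0357), and with both vehicle mice 3 and 5 left out it was 2.70 (adjusted p = 0.00134). Removing 1 library ended this call for each of the 4 CNO IP libraries and for replicates 2 and 4 of vehicle IP, with adjusted p no higher than 0.0948.

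B3gnt5, a glycosyltransferase of lactoseries glycolipids, and Emp1, an epithelial membrane protein of the PMP22 family, rose by similar amounts. B3gnt5 had 5.29, 5.37, 9.46 and 8.01 CPM in CNO IP, against 2.05, 1.87, 2.01 and 2.61 CPM in vehicle IP (log2 fold change 1.68, SE 0.21, adjusted p = 5.68e-04). Emp1 had 30.6, 31.2, 40.0 and 35.8 CPM in CNO IP, against 13.4, 7.26, 11.1 and 16.4 CPM in vehicle IP (1.57, SE 0.23, adjusted p = 0.00190). Neither gene overlapped between the groups.

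Ptgs2 encodes cyclooxygenase 2, the inducible enzyme of prostaglandin synthesis. Its levels were 7.86, 5.87, 5.81 and 13.97 CPM in CNO IP, against 2.63, 2.42, 4.17 and 3.74 CPM in vehicle IP (log2 fold change 1.31, SE 0.30, adjusted p = 0.018). The groups did not overlap, and CNO mouse 5 was the highest. The call was lost without vehicle IP replicate 2 (adjusted p = 0.0592) and with both vehicle mice 3 and 5 left out (adjusted p = 0.0730). Of 13 other prostaglandin pathway genes tested, 1 was higher, the prostaglandin F receptor gene Ptgfr (2.92, SE 0.28), and 0 were lower.

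Cd14, the co-receptor for bacterial endotoxin, is chiefly a gene of myeloid cells. It had 0.666, 0.647, 0.815 and 1.24 CPM in CNO IP, against 0.413, 0.109, 0.244 and 0.478 CPM in vehicle IP (log2 fold change 1.57, SE 0.46, adjusted p = 0.0457). These levels were low, as 1 read was 0.0182 CPM in vehicle IP replicate 3. The groups did not overlap, yet removing the same single libraries as for Tgm1 ended the call, with adjusted p no higher than 0.114. In the same comparison 0 of 18 microglial markers and 0 of 4 blood myeloid markers passed in either direction. S100a10, a calcium-binding protein that joins annexin A2, had 34.1, 46.4, 49.0 and 45.5 CPM in CNO IP, against 24.4, 18.5, 22.2 and 38.0 CPM in vehicle IP (0.80, SE 0.21, adjusted p = 0.0335). It overlapped through vehicle mouse 5, and removing 1 of replicates 3, 4 and 5 of CNO IP or of replicates 2, 3 and 4 of vehicle IP ended its call, with adjusted p no higher than 0.0910.

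The remaining A2 genes did not pass. Cd109, a membrane protein of the alpha-2-macroglobulin family, averaged 43.2 ± 10.8 CPM in CNO IP and 37.0 ± 15.8 CPM in vehicle IP (SD, n = 4 each), and Tm4sf1, a tetraspanin-like gene of endothelium and tumours, 11.7 ± 2.70 and 15.9 ± 7.71 CPM. Tm4sf1 was at 5.10 CPM in vehicle mouse 5 and at 16.3 to 22.9 CPM in the other vehicle mice. Its log2 fold change was -0.27 (SE 0.44, adjusted p = 0.766), but -0.88 with both vehicle mice 3 and 5 left out (adjusted p = 0.0352).

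**Figure D3:**
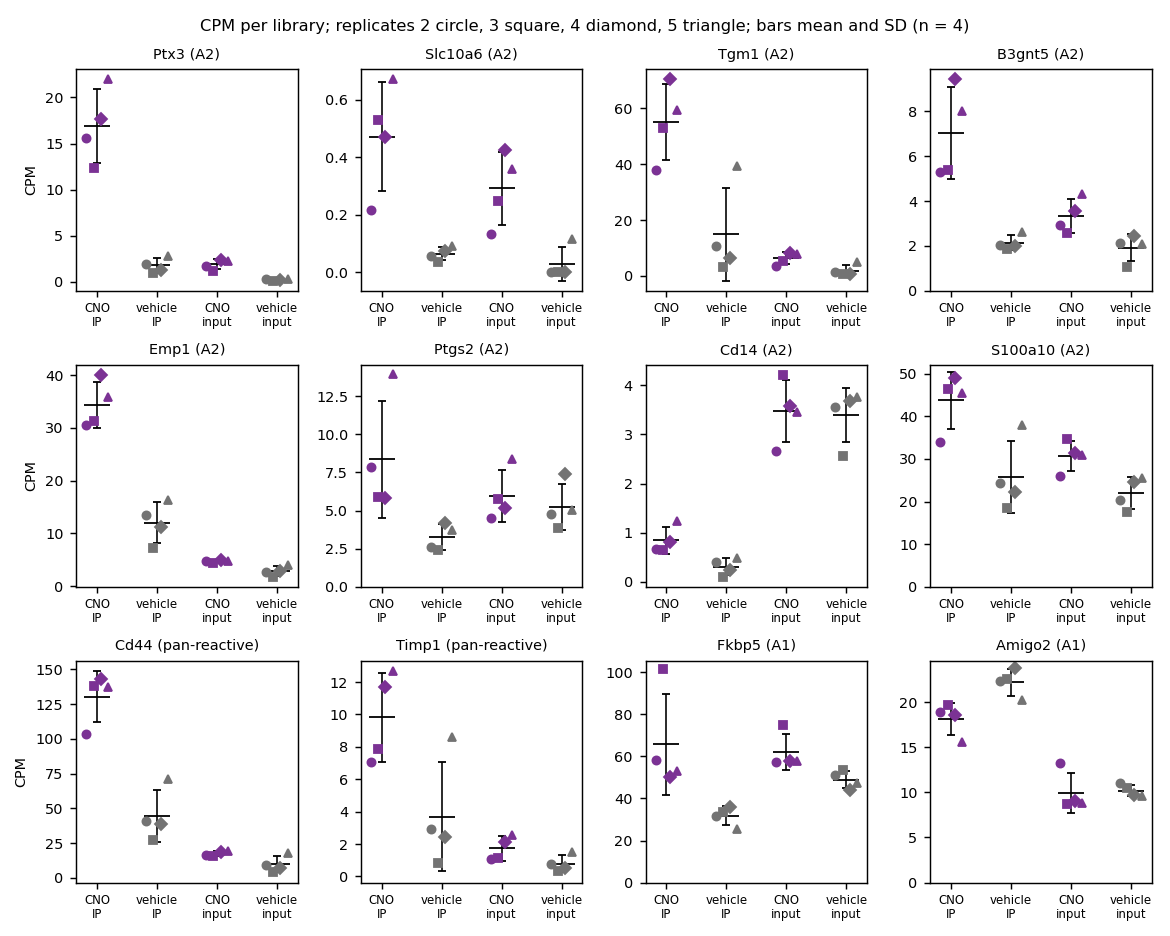
CPM of the 11 genes past the threshold in IP and of Timp1 in each library, on linear axes; purple marks CNO and grey vehicle, marker shapes the replicate number, and bars the mean and SD of 4 libraries. Vehicle mouse 5 (triangle) reaches the CNO range in IP for Tgm1, Timp1 and S100a10 but not for Ptx3, Emp1, B3gnt5 or Cd44.

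Among the pan-reactive genes Cd44 alone passed. It had 103, 138, 143 and 137 CPM in CNO IP, against 40.8, 26.9, 38.8 and 71.4 CPM in vehicle IP (log2 fold change 1.63, SE 0.26, adjusted p = 0.00332). The groups did not overlap. The largest log2 fold change of the class was that of Timp1, an inhibitor of matrix metalloproteinases, but it did not pass (1.84, SE 0.61, adjusted p = 0.0766), with 7.09 to 12.7 CPM in CNO IP and 0.818 to 8.59 CPM in vehicle IP. Timp1 passed without vehicle IP replicate 5 (adjusted p = 0.00975) and with both vehicle mice 3 and 5 left out (adjusted p = 0.00322). Vim, an intermediate filament gene, averaged 517 ± 61.3 CPM in CNO IP and 358 ± 180 CPM in vehicle IP (SD, n = 4 each). Its log2 fold change was 0.67 (SE 0.34, adjusted p = 0.235) and that of Cxcl10 was 0.90 (SE 0.41, adjusted p = 0.186). With both vehicle mice 3 and 5 left out the values were 0.60 for Vim (adjusted p = 0.0108) and 0.78 for Cxcl10 (adjusted p = 0.0300).

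Gfap, the filament gene most used as a mark of reactivity, averaged 4322 ± 629 CPM in CNO IP and 3624 ± 1373 CPM in vehicle IP (SD, n = 4 each). Its log2 fold change of 0.32 (SE 0.26, adjusted p = 0.485) was within the spread between vehicle mice. The other pan-reactive genes also did not pass. They were the acute phase serpin gene Serpina3n (0.44, SE 0.47), the iron-binding lipocalin gene Lcn2 (0.50, SE 0.71), Steap4 (0.20, SE 0.29), the asparaginase gene Aspg (-0.22, SE 0.19) and the ferroxidase gene Cp (-0.27, SE 0.35). Lcn2 ran from 0.400 to 5.94 CPM in vehicle IP and from 1.44 to 2.62 CPM in CNO IP, so no change could be read at this spread.

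Of the A1 genes, Fkbp5 had 58.3, 101, 50.4 and 53.2 CPM in CNO IP, against 31.9, 33.7, 36.2 and 25.4 CPM in vehicle IP (log2 fold change 1.00, SE 0.22, adjusted p = 0.0145). The groups did not overlap, and CNO mouse 3 stood far above the other CNO mice. With both vehicle mice 3 and 5 left out the call was lost (0.89, adjusted p = 0.0756). Fkbp5 is a classic target of the glucocorticoid receptor. Of 16 other glucocorticoid-response genes 6 were higher and 1 lower, beside 10.2% and 7.08% of all genes. A part of this receptor in the change was not tested. The lower one was Nr3c1, the gene of the receptor itself (-0.46, SE 0.04), named after its value was seen. Among the higher ones were the metallothionein gene Mt2 (1.37, SE 0.12) and the transcription factor gene Zbtb16 (1.02, SE 0.25), and the clock gene Per1 was at 0.90 (SE 0.07). Zbtb16 lost its call with both vehicle mice 3 and 5 left out, when the list had 4 higher. It also lost it when 1 of 4 libraries was removed, namely replicates 2, 3 and 5 of CNO IP and replicate 4 of vehicle IP, with adjusted p no higher than 0.0762.

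Amigo2 was the 1 panel gene called lower. It had 18.9, 19.7, 18.5 and 15.6 CPM in CNO IP, against 22.3, 22.6, 23.7 and 20.2 CPM in vehicle IP (log2 fold change -0.29, SE 0.08, adjusted p = 0.0404). The groups did not overlap. The call was lost without 6 of the 8 libraries, all except replicate 3 of CNO IP and replicate 5 of vehicle IP, with adjusted p no higher than 0.114, and with both vehicle mice 3 and 5 left out (adjusted p = 0.0501). Pced1b, which overlaps Amigo2 on the opposite strand, was at -0.36 (SE 0.12, adjusted p = 0.0809). Whether reads were counted by strand is not given in the sources used here, and without strand the reads of such neighbours cannot be told apart.

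The 9 other A1 genes did not pass. The interferon-inducible genes, Cxcl10 of the pan-reactive class included, had log2 fold changes of -0.03 to 0.90 with SE of 0.37 to 0.50 (adjusted p = 0.186 to 0.985). H2-D1 averaged 851 ± 118 CPM in CNO IP and 867 ± 384 CPM in vehicle IP, and Gbp2 524 ± 143 and 544 ± 285 CPM (SD, n = 4 each). Ggta1, a galactosyltransferase gene, was at 30.8 ± 3.64 CPM in CNO IP and 48.3 ± 13.9 CPM in vehicle IP. Its log2 fold change of -0.60 did not pass (SE 0.22, adjusted p = 0.0974), but it did without vehicle IP replicate 3 (adjusted p = 0.00145) and with both vehicle mice 3 and 5 left out (-0.74, adjusted p = 0.00349). Srgn (-0.24, SE 0.41) and the elastic fibre gene Fbln5 (0.09, SE 0.13) complete the class. Families of near-identical genes, such as the class I antigen genes, the guanylate-binding proteins, the Iigp1 family and the Serpina3 cluster, can share reads, so values of their members are uncertain.

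The same comparison in input asks what CNO changed in RNA of the whole tissue. Of 30 genes tested, Ptx3 alone was called higher and 0 were lower, beside 0.815% of 15825 genes higher and 0.183% lower. At an unadjusted p under 0.05 the counts were 8 and 1, beside 641 higher and 954 lower of all 15825 genes. Ptx3 had 1.76, 1.19, 2.35 and 2.27 CPM in CNO input, against 0.272, 0.138, 0.211 and 0.349 CPM in vehicle input, with no overlap (log2 fold change 2.97, SE 0.35, adjusted p = 0.00216). Slc10a6 stayed below the count filter in input, with 45 reads in CNO input and 5 in vehicle input, all 5 of them in mouse 5. Class medians were 0.50 for A2, 0.45 for pan-reactive and -0.02 for A1 genes, against -0.02 for all genes. Tgm1 was at 2.18 (SE 0.67, adjusted p = 0.294) and Timp1 at 1.30 (SE 0.48, adjusted p = 0.387). With both vehicle mice 3 and 5 left out Cd44 (1.10, adjusted p = 0.00348) and Tgm1 (2.55, adjusted p = 0.0201) passed beside Ptx3. All CNO input libraries exceeded all vehicle input libraries for 5 genes, namely Ptx3, S100a10, Emp1, B3gnt5 and Fkbp5 (3.22% of all genes), and lay below them for Fbln5 (4.03%).

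Whether CNO moved a gene more in IP than in input was tested as an interaction over all 16 libraries. Of the 31 genes 0 were called in either direction, beside 4.18% of 16256 genes higher and 0.572% lower. At an unadjusted p under 0.05, 5 were higher (Fkbp5, Ptgs2, Emp1, B3gnt5 and Cd14) and 0 lower. Over all 16256 genes these counts were 1715 and 700. IP and input of a number come from 1 mouse, and with the mouse as a block 6 genes were called, all with the larger change in IP, beside 6.26% of all genes higher and 1.37% lower under that block. The differences were 1.54 for Cd14 (SE 0.37, adjusted p = 0.0234), 1.13 for Ptgs2 (SE 0.19, adjusted p = 0.00233), 0.78 for Emp1 (SE 0.12, adjusted p = 0.00133), 0.67 for Fkbp5 (SE 0.15, adjusted p = 0.0243), 0.58 for Cd44 (SE 0.14, adjusted p = 0.0262) and 0.32 for Vim (SE 0.08, adjusted p = 0.0357), all on the log2 scale. In input Cd14 averaged 3.47 ± 0.627 CPM with CNO and 3.39 ± 0.557 CPM with vehicle, and Ptgs2 5.94 ± 1.69 and 5.25 ± 1.51 CPM (SD, n = 4 each). Their log2 fold changes in input were 0.03 (SE 0.18) for Cd14 and 0.18 (SE 0.23) for Ptgs2, neither past the threshold. For Ptx3 the difference was 0.36 (SE 0.48 without the block), which did not pass with the block either (adjusted p = 0.371).

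The last pair of comparisons asks which panel genes the capture took up. In CNO mice 22 of 31 genes were higher and 2 lower in IP than in input, beside 40.0% of 15819 genes higher and 35.0% lower. In vehicle mice 18 of 30 were higher and 5 lower, beside 37.7% of 15872 genes higher and 37.2% lower. The median log2 ratio over the panel was 1.74 in CNO mice and 1.77 in vehicle mice, against 0.04 and 0.01 over all genes. Gfap, with a ratio of 3.04 (SE 0.13) in CNO mice and 3.13 (SE 0.38) in vehicle mice, and Cd109, at 3.03 (SE 0.19) and 3.12 (SE 0.38), were close to the median astrocyte marker, at 2.90 and 2.84. Ptx3 was at 3.17 (SE 0.24) and 2.81 (SE 0.40). Serping1, an A1 gene, was at 2.63 (SE 0.19) in CNO mice and 2.57 (SE 0.66) in vehicle mice.

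Srgn and Cd14, genes known from myeloid cells, were lower in IP in both groups of mice. Srgn had a log2 ratio of -4.38 (SE 0.29) in CNO mice and -4.15 (SE 0.44) in vehicle mice, close to the medians of the microglial markers, at -4.14 and -4.37. Cd14 was at -2.07 (SE 0.24) and -3.61 (SE 0.43). In vehicle mice Fkbp5 (-0.63, SE 0.11), Ptgs2 (-0.69, SE 0.24) and Fbln5 (-0.46, SE 0.12) were also lower, while in CNO mice Fkbp5 was at 0.04 (SE 0.21), Ptgs2 at 0.44 (SE 0.30) and Fbln5 at -0.23 (SE 0.10), none of them past the threshold. With the mouse as a block, under which 42.3% of all genes were higher and 37.1% lower in CNO mice, Ptgs2 (adjusted p = 0.0154), Cp (adjusted p = 0.0176) and Tm4sf1 (adjusted p = 0.0475) became higher in IP in CNO mice. In vehicle mice, where the block gave 40.0% higher and 39.2% lower, Lcn2 (adjusted p = 1.70e-04), Iigp1 (adjusted p = 5.08e-08) and Psmb8 (adjusted p = 1.35e-07) became higher. In vehicle mice 8 of the 23 calls without the block were lost under at least 1 of 16 alternatives, namely H2-T23, H2-D1, Timp1, Cxcl10, Steap4, Fbln5, Tgm1 and Ptgs2. With both vehicle mice 3 and 5 left out Fbln5 lost its call and Lcn2, Cp, Iigp1, Psmb8 and Tm4sf1 became higher in IP, giving 23 higher and 4 lower. In CNO mice S100a10 (0.50, SE 0.12) lost its call with total reads scaling (adjusted p = 0.156). That scaling moved the all-gene median of IP over input by -0.31 in CNO mice and -0.27 in vehicle mice, and upper quartile scaling by -0.21 and -0.15.

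**Figure D4:**
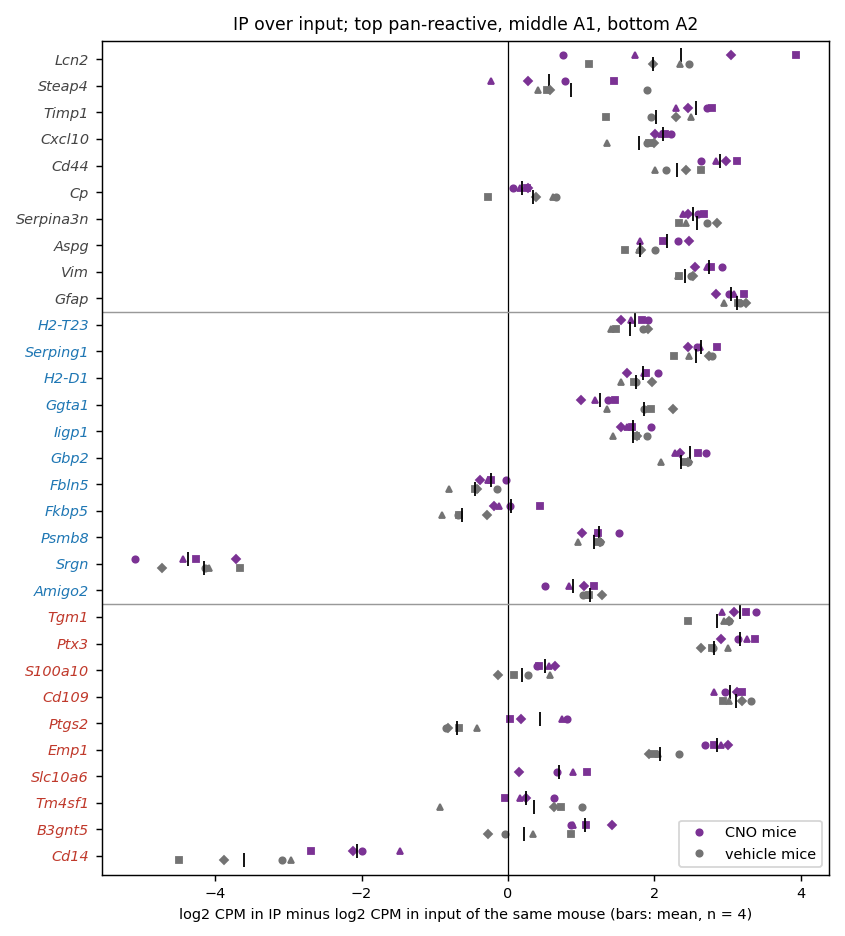
Each point is log2 CPM in IP minus log2 CPM in input of 1 mouse, purple for CNO and grey for vehicle, with bars at the mean of 4 mice and marker shapes for the replicate number. Most genes lie above 0, Srgn and Cd14 far below it, and the CNO mice lie above the vehicle mice for Cd14, Ptgs2 and Emp1. Slc10a6 is not drawn for vehicle mice, where input held 0 reads in most mice.

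Genes beside the panel were read from lists of known pathways. Of 9 other genes of the published panel 7 were found in the data, and Ugt1a1 and Ugt1a2 were not. In CNO IP 5 of 6 tested were higher and 0 lower. These 5 were the sphingosine kinase gene Sphk1 (log2 fold change 6.43, SE 0.27), the cytokine gene Clcf1 (3.78, SE 0.29), the sphingosine 1-phosphate receptor gene S1pr3 (2.05, SE 0.33), the oncostatin M receptor gene Osmr (1.5, SE 0.34) and the small heat shock gene Hspb1 (1.24, SE 0.21). Osmr lost its call when replicate 4 or replicate 5 of CNO IP was removed, with adjusted p no higher than 0.0551. The glucuronosyltransferase gene Ugt1a6a did not pass (6.30 ± 0.769 CPM in CNO IP and 7.79 ± 0.603 CPM in vehicle IP, SD, n = 4 each), and Ugt1a7c was too low to test. In input Sphk1 alone of the 7 tested was higher (3.27, SE 0.43), a call lost with both vehicle mice 3 and 5 left out (adjusted p = 0.160).

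Cytokines that signal through STAT3, a transcription factor needed for full astrocyte reactivity, and their receptors and targets were higher for 10 of 19 genes in CNO IP and lower for 1. This list also holds Clcf1 and Osmr. The largest values were 7.63 for Il11 (SE 0.22), 6.77 for Il6 (SE 0.89) and 5.34 for the feedback inhibitor gene Socs3 (SE 0.37). On the scale of log2(CPM + 1), which shrinks low genes, Il6 was at 2.36, Il11 at 5.74, Clcf1 at 1.71 and Sphk1 at 4.72. The lower gene was the receptor gene Il11ra1 (-0.22, SE 0.05), named after its value was seen and lost under 5 alternatives. Of 20 NF-kB pathway genes 9 were higher and 1 lower, with the chemokine genes Cxcl1 (5.09, SE 1.27) and Ccl2 (2.49, SE 0.59) and the inhibitor gene Nfkbie (1.62, SE 0.19) at the top. The call of the 1 lower gene was lost under 10 of 16 alternatives. On the log2(CPM + 1) scale Cxcl1 was at 1.65. Cxcl1 lost its call with the removal of 1 of 6 libraries (all 4 of CNO IP, and replicates 2 and 4 of vehicle IP), with adjusted p no higher than 0.0722. Ccl2 lost it for 4 of them (replicates 3, 4 and 5 of CNO IP, replicate 4 of vehicle IP), with adjusted p no higher than 0.0593. The interferon-response list had 1 of 30 higher, Rsad2 (1.07, SE 0.21), and 0 lower. It had 6 higher with both vehicle mice 3 and 5 left out. Of 12 signals known to induce the A1 class and their receptors, 1 was higher, the tumour necrosis factor receptor gene Tnfrsf1b (2.18, SE 0.27), and 0 were lower. With both mice left out this list had 3 higher and 1 lower. Shares of 10.2% higher and 7.08% lower over all genes stand beside all these counts.

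Filament and adhesion genes other than the panel's Gfap, Vim and Cd44 were higher for 9 of 18 and lower for 1, with the actin crosslinker gene Flna (2.46, SE 0.07), the filament gene Nes (1.66, SE 0.18) and the calponin family gene Tagln2 (1.06, SE 0.27) at the top. The call of the 1 lower gene was lost under 8 of 16 alternatives. Tagln2 lost its call when 1 of 5 libraries was removed (replicates 3, 4 and 5 of CNO IP, replicates 2 and 4 of vehicle IP), with adjusted p no higher than 0.0781. Of a list of complement genes and protease inhibitors, Timp4, a relative of Timp1, was lower (-0.55, SE 0.12). Of the astrocyte markers 0 of 15 were higher and 2 lower, Gja1 (-0.30, SE 0.08) and S100b (-0.22, SE 0.06). These calls were lost under 7 and 10 of 16 alternatives, and 4 markers were lower with both vehicle mice 3 and 5 left out. The markers had summed levels of 31357 to 34150 CPM in CNO IP and 28393 to 37431 CPM in vehicle IP. In input, where 0.815% of all genes were higher and 0.183% lower, the STAT3 list had 4 of 20 higher (Il11 at 4.98, Socs3 at 3.39, Il6 at 3.13 and Lif at 1.88). The NF-kB list had 1 of 20 (Cxcl1, 2.46), the filament list 1 of 17 (Flna, 0.61) and the glucocorticoid list 2 of 16 (Mt2, 1.28, and Mt1, 0.49). The calls of Cxcl1 and Mt1 in input were lost under several alternatives.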

How the data were processed

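RNA was measured in 16 libraries, an IP and an input library from each of 8 mouse codes, grouped by the injection and RNA type in the sample labels. Per the labels' protocols, paired-end libraries were made from IP or input RNA with an Ovation RNA-Seq kit. Per the submitters' processing notes, bcl2fastq 2.17, STAR, HTSeq and limma were used with the mouse build mm10. The authors deposited log2 CPM for 17098 gene lines in every library. A line that repeated another exactly was dropped, and 2 lines with the same date-like symbol were left unnamed. With a prior count of 0.25 and the normalized library size solved from the low values, whole reads were recovered within 0.01 for 100% of values. CPM and read numbers are those recovered reads.

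The deposited log2 values were tested with limma 3.58.1 (R 4.3.3; lmFit, then eBayes with trend and robust settings). A gene was kept with 15 or more reads over the libraries compared, and a CPM worth 10 reads of the median library in 4 or more of them. Fits used the groups compared, and the interaction used 16 libraries. Benjamini-Hochberg adjustment ran over every gene tested, and the code was tested on simulated data. Panel genes and lists were chosen with earlier results of these data known. All 31 genes were to be accounted for, with every library given for those past the threshold in CNO against vehicle or the interaction, at most 3 called genes named per list, and all of the published panel's other genes. The STAT3 list, in IP and in input, and the glucocorticoid list in IP went past 3 named genes. A result of the list of complement genes and protease inhibitors is not reported here.

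Pairing was checked by correlating deviations from group means. IP and input with 1 number come from 1 mouse (0.180 to 0.546), so blocked results stand beside those comparisons. CNO and vehicle mice share only a number. Alternatives were other scalings, no filter, log2(CPM + 1), limma-voom on the recovered reads, 1 fit of all groups, the block, and each library left out. Leaving out both vehicle mice 3 and 5, and running the alternatives on the lists, was chosen after seeing the data. Promoters are RefSeq sequences of GRCm38.p6, and gene coordinates and exon lengths are from GENCODE on GRCm38.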

Additional observations from a re-analysis of the deposited data

Results flagged for a closer look

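In 8 of 124 groups of 4 libraries, 1 library lay far from the other 3, and chance gives about 1 such group in 20. In vehicle IP replicate 3, H2-T23 was at 122 CPM, against 405 to 507 CPM in the other vehicle IP libraries, and Serping1 at 31.6 CPM, against 135 to 179 CPM. In vehicle input, Cd14 was at 2.57 CPM in replicate 3, against 3.56 to 3.77 CPM in the others, and Slc10a6 at 0.116 CPM in replicate 5, where the others held 0 reads. In CNO IP, Cd44 was at 103 CPM in replicate 2, against 137 to 143 CPM. In CNO input replicate 2, Cxcl10 was at 15.4 CPM, against 23.9 to 24.1 CPM, and Amigo2 at 13.2 CPM, against 8.70 to 9.06 CPM. Fkbp5 was at 74.9 CPM in CNO input replicate 3, against 57.4 to 58.0 CPM, and that mouse also had the highest Fkbp5 level in CNO IP (101 CPM).

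For 6 genes the CNO effect differed between IP and input with the mouse as a block. The differences on the log2 scale were 1.54 for Cd14, 1.13 for Ptgs2, 0.78 for Emp1, 0.67 for Fkbp5, 0.58 for Cd44 and 0.32 for Vim (limma adjusted p = 0.00133 to 0.0357). Under the same block 6.26% of all genes were higher and 1.37% lower.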

How the results depend on the processing

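In CNO against vehicle IP, Ptx3, Cd44, Emp1, Slc10a6 and B3gnt5 were called under all 16 alternatives, and the 6 other calls were lost at least once. Slc10a6 reached the count filter only in its CNO IP libraries. Leaving out 1 library at a time gave 6 to 12 genes higher and 0 to 2 lower in IP, 1 to 4 higher and 0 lower in input, 22 to 23 higher and 2 to 3 lower in IP over input of CNO mice, 14 to 21 and 4 to 5 in vehicle mice, and 0 to 1 in each direction for the interaction. The lowest count in IP came without vehicle IP replicate 2, and the highest in input without vehicle input replicate 5. The fit over 16 libraries left 0 lower in CNO IP. With both vehicle mice 3 and 5 left out there were 2 lower in IP, 3 higher in input and 1 in the interaction (Emp1), and log2(CPM + 1) gave 1 in the interaction. With the replicate number as a block CNO IP had 8 higher and 1 lower (Tgm1, adjusted p = 0.0516, and S100a10, adjusted p = 0.0506, were lost). Same-numbered CNO and vehicle mice did not deviate together (correlations -0.315 to 0.178). Most CNO samples were closer to a vehicle sample of another number. With the mouse as a block the interaction had 6 higher (1018 of all genes, against 680 without it). IP over input had 25 higher in CNO mice (6685 of all genes, against 6323) and 21 in vehicle mice (6343, against 5978). Calls that were higher made up 59.2% of all calls in CNO IP, 39.3% with upper quartile scaling and 44.5% with total reads. The shares were 53.3%, 40.3% and 34.8% in IP over input of CNO mice, 50.3%, 40.8% and 34.2% in vehicle mice, and 88.0%, 73.2% and 77.6% in the interaction. No panel gene's called value changed sign. The cause of these shifts was not tested.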
